A study of Homo sapiens with 18 samples.

Results

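The 37 genes of the mitochondrial chromosome were examined in PANC-1 cells, an established line from a human pancreatic ductal carcinoma, with and without knockdown of NAT10. The members were all genes of GENCODE v29 whose symbol begins with MT-, 37 of the 58302 genes in the expression table, and they comprised 13 coding genes, 2 rRNA genes and 22 tRNA genes. All 37 were listed in the table by their Ensembl identifier. On the strand called plus lay 28 of them (12 coding, both rRNA and 14 tRNA genes), and on the minus strand lay 9 (MT-ND6 and 8 tRNA genes). Cells of the shCtrl group carried a lentiviral control shRNA vector and cells of the shNAT10 group carried a lentiviral shRNA against NAT10, both as stable lines of the same parent. Neither the labels nor the methods say which NAT10 shRNA was used in these libraries. RNA-seq on captured mRNA gave 3 libraries per group, and acRIP-seq, an immunoprecipitation of fragmented RNA with an antibody against N4-acetylcytidine (ac4C), gave 3 IP and 3 input libraries per group that are deposited as 1 list of peaks per group. Nothing in the labels says that the 3 libraries of a group came from separate cultures, so p-values measure the spread between these libraries, which may be technical.

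Mitochondria carry a small circular chromosome of their own, and both of its strands are copied by the polymerase POLRMT, with TFAM and TFB2M, into long precursors. The tRNAs that stand between the other genes mark the places where RNase P and ELAC2 cut the precursors into rRNAs, mRNAs and tRNAs, so that genes of a strand share their transcription but not the fate of the finished RNA. The coding genes make membrane subunits of respiratory complexes I, III and IV and of the ATP synthase, and the rRNAs and tRNAs serve the ribosomes inside the organelle that translate these mRNAs. NAT10 is the acetyltransferase that forms ac4C and is known for acetylating the rRNA of the small cytosolic ribosome subunit and serine and leucine tRNAs of the cytosol.

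The targeted gene checked the labels. NAT10 was at 31.6, 27.7 and 28.6 FPKM (fragments scaled to gene length and library size) in shCtrl and at 7.92, 8.43 and 7.90 FPKM in shNAT10 (log2 fold change -1.84 ± 0.076 SE, adjusted p = 3.85e-05, limma). Depth lay between 15831720 and 23521762 reads on genes per library. The epithelial keratins KRT8, KRT18, KRT19 and KRT7 were detected in every library, as was EPCAM, and PTPRC, CD3E and PECAM1, which mark leukocytes and endothelium, stayed at or under 0.0399 FPKM. COL1A1, also looked at as a marker of other cells, was detected in every library, at 17.3 to 34.0 FPKM, above KRT7 at 4.52 to 10.7 FPKM. The markers themselves moved with the groups: log2 fold changes were -1.18 for KRT8, -0.84 for KRT18, -0.83 for KRT19, -0.83 for KRT7, 2.20 for EPCAM and -0.69 for the fibroblast gene COL1A1, all past the test (adjusted p between 6.88e-05 and 0.00609, limma). Their part in the mitochondrial differences was not tested. One library, shCtrl replicate 2, stood apart, and not only in the members described here. Over all tested genes it correlated at 0.959 and 0.975 with shCtrl replicates 1 and 3, which correlated at 0.982 with each other. Its summed FPKM was 390761, and that of the other libraries lay between 337414 and 361185, so values of nuclear genes below carry the same limit. In shCtrl replicate 2, MT-ND1, MT-ND2, MT-ND3, MT-ND4, MT-CO2, MT-CO3, MT-ATP6 and MT-CYB were the highest of the 6 libraries and MT-ND5 was the lowest. Calls that change without it are named beside the gene.

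Mitochondrial RNA took a smaller share of the reads in the shNAT10 libraries. The 37 genes held 6.52%, 6.96% and 6.77% of the reads on genes in shCtrl replicates 1 to 3 and 5.41%, 5.38% and 5.60% in shNAT10 replicates 1 to 3, so that the groups did not overlap. The share on the 13 coding genes was 5.19% ± 0.17 (SD, n = 3) in shCtrl and 4.48% ± 0.095 in shNAT10, and the share on the 2 rRNA genes was 1.57% ± 0.065 and 0.981% ± 0.050. All 22 tRNA genes together held 145, 203 and 192 reads in shCtrl and 135, 156 and 84 in shNAT10. A smaller share can come from fewer mitochondria or mitochondrial chromosomes per cell, from less RNA per chromosome, or from more RNA of other genes. It can also come from a difference in what the mRNA capture retained, and in bulk samples these cannot be told apart.

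Of the 13 coding genes, 7 were lower in shNAT10 past an adjusted p of 0.05, and 0 were higher. The 7 were MT-ND1, MT-ND2, MT-ND3, MT-ND4, MT-CO2, MT-CO3 and MT-ATP6, with log2 fold changes between -0.75 and -0.35, or 0.596 to 0.787 of the control level. That is 53.8% of the coding genes, beside 21.2% of the 12982 tested genes called lower and 20.8% called higher. The median log2 fold change of the 13 genes was -0.35, and that of all tested genes was -0.01. Quantile normalization, which gives all libraries 1 set of values by rank, turned the median to 0.03 and left 2 of the 13 called lower (MT-ND2 and MT-ND3) and 1 called higher (MT-CYB). In 9 of the 13 the 3 shNAT10 values all lay below the 3 shCtrl values, and in 1 they all lay above, where 28.6% and 27.9% of all tested genes did so. No coding gene moved past 1 on the log2 scale, which 3.57% of the tested genes did downward and 2.91% upward with an adjusted p under 0.05. An exact permutation test of 3 against 3 libraries cannot give a two-sided p under 0.1, and it gave 0.1 for each of these 10 genes. With no filter on low values, over 29695 genes, 1 of the 13 was called lower (MT-ND3). Without shNAT10 replicate 2, 3 of the 13 were called lower, and without shCtrl replicate 1, MT-ND5 was called higher.

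**Figure D1:**
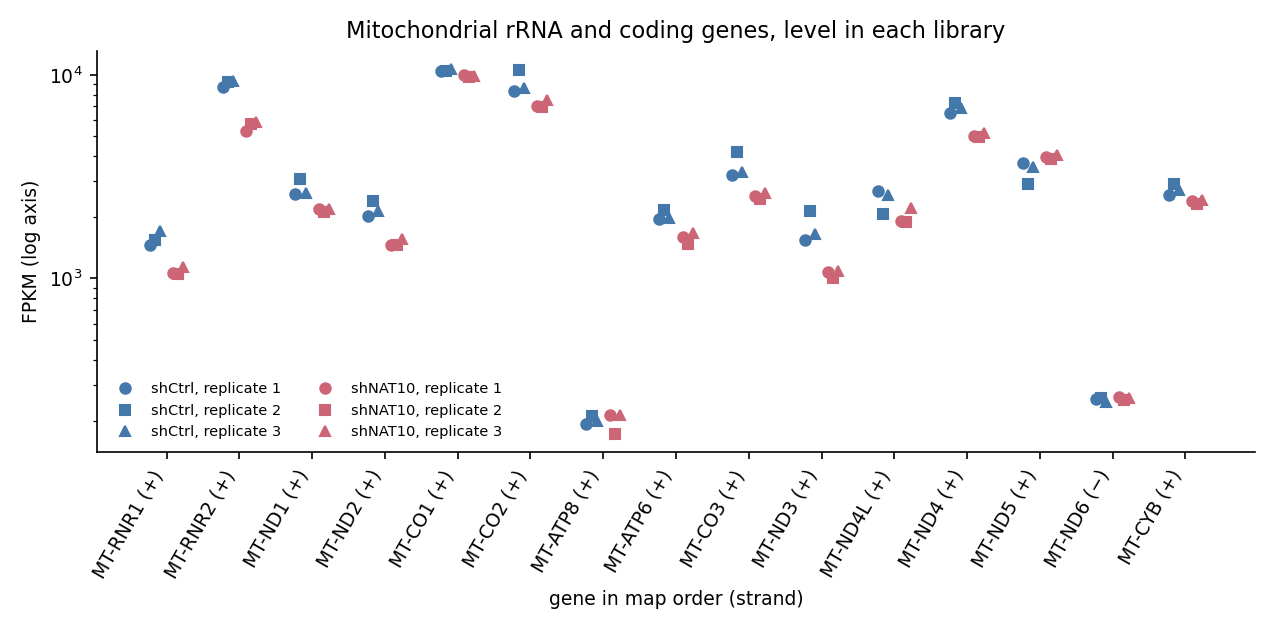
FPKM on a log axis of the 2 rRNA and 13 coding genes in map order, with the strand in parentheses, 1 symbol per library (shCtrl blue, shNAT10 red, symbol by replicate number). MT-CO1 sat near 10500 FPKM in shCtrl, and MT-ND6 and MT-ATP8 lay far below all other genes, between 172 and 260 FPKM.

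Complex I, the NADH dehydrogenase that feeds electrons into the chain, takes 7 of its subunits from this chromosome. MT-ND1 (ENSG00000198888, chrM:3307-4262), which forms part of the quinone site, was at 2603, 3080 and 2620 FPKM in shCtrl and at 2189, 2121 and 2184 FPKM in shNAT10 (log2 fold change -0.35 ± 0.085 SE, adjusted p = 0.0157). MT-ND2 (chrM:4470-5511), a subunit of the proton-pumping arm, was at 2024, 2398 and 2144 FPKM and at 1462, 1462 and 1570 FPKM (-0.54 ± 0.084, adjusted p = 0.00256). MT-ND3 (chrM:10059-10404), a short subunit near the junction of the 2 arms, was at 1544, 2153 and 1663 FPKM and at 1079, 1002 and 1084 FPKM (-0.75 ± 0.13, adjusted p = 0.00377), the steepest fall among the coding genes. In each of the 3 genes every shNAT10 library lay below every shCtrl library, and in each shCtrl replicate 2 was the highest. MT-ND4 (chrM:10760-12137), another pump subunit, was at 6467, 7280 and 6888 FPKM in shCtrl and at 5002, 4965 and 5173 FPKM in shNAT10 (-0.45 ± 0.074, adjusted p = 0.00356). Without shNAT10 replicate 1, 2 or 3, the call of MT-ND1 was lost in each case, at log2 fold changes of -0.36, -0.34 and -0.36.

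The other complex I genes did not pass the test. MT-ND4L (chrM:10470-10766), which shares 7 bases with the start of MT-ND4 on the same RNA, was at 2686, 2085 and 2578 FPKM in shCtrl and at 1926, 1884 and 2213 FPKM in shNAT10, and the groups overlapped (-0.28 ± 0.12, adjusted p = 0.0922). Without shCtrl replicate 2, its low control value, MT-ND4L was called lower (-0.39). MT-ND5 (ENSG00000198786, chrM:12337-14148), the largest pump subunit and the longest gene of the chromosome, went the other way in level. It was at 3679, 2903 and 3532 FPKM in shCtrl and at 3928, 3863 and 4055 FPKM in shNAT10, all 3 above the controls, with a log2 fold change of 0.24 ± 0.10 SE and an adjusted p of 0.102. Over the libraries left out in turn its log2 fold change lay between 0.13, without shCtrl replicate 2, and 0.30, without shCtrl replicate 1, where it was called. MT-ND6 (ENSG00000198695, chrM:14149-14673), the sole coding gene of the minus strand, was at 255, 259 and 248 FPKM and at 260, 252 and 258 FPKM, and the groups overlapped (0.01 ± 0.057, adjusted p = 0.854).

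MT-CYB (chrM:14747-15887) makes cytochrome b, the one complex III subunit of this chromosome. It was at 2571, 2896 and 2712 FPKM in shCtrl and at 2394, 2333 and 2419 FPKM in shNAT10, without overlap, but it did not pass the test (-0.19 ± 0.071, adjusted p = 0.0655). It was called lower without shCtrl replicate 1 (-0.23), without shCtrl replicate 2 (-0.15) and in the fit on recovered reads (-0.18), and called higher under quantile normalization (0.10).

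Complex IV, cytochrome c oxidase, takes its catalytic core from 3 mitochondrial genes, and these differed in size of change. MT-CO1 (chrM:5904-7445), which holds the heme and copper site where oxygen is reduced, had the highest level of the 13 coding genes, with 10472, 10465 and 10680 FPKM in shCtrl and 10028, 9764 and 9916 FPKM in shNAT10. The groups did not overlap, and the difference was small and did not pass the test (-0.09 ± 0.066, adjusted p = 0.314), with the other sign as TPM (0.02) and under quantile normalization (0.10). MT-CO2 (chrM:7586-8269), which takes electrons from cytochrome c, was at 8285, 10549 and 8653 FPKM and at 7047, 6973 and 7507 FPKM (-0.35 ± 0.11, adjusted p = 0.0364). The call of MT-CO2 was the least firm of the 7: it was lost without shCtrl replicate 3 and without each of the shNAT10 libraries, at values between -0.38 and -0.32, and with no filter (-0.35), with median centring (-0.35, adjusted p = 0.0544, limma) and with the replicate number as a block (-0.35, adjusted p = 0.0645, limma). Its sign turned under quantile normalization (0.05). MT-CO3 (chrM:9207-9990), a structural core subunit, was at 3225, 4193 and 3344 FPKM and at 2529, 2454 and 2617 FPKM (-0.49 ± 0.11, adjusted p = 0.0112). Its call was lost without shNAT10 replicate 2 (-0.47).

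The ATP synthase has 2 subunits from this chromosome, read from 1 RNA in overlapping frames. MT-ATP6 (chrM:8527-9207), the subunit of the proton channel, was at 1963, 2169 and 1980 FPKM in shCtrl and at 1593, 1482 and 1669 FPKM in shNAT10 (-0.37 ± 0.078, adjusted p = 0.00928), and its call was lost without shNAT10 replicate 2 (-0.32). MT-ATP8 (chrM:8366-8572), a small accessory subunit, was at 193, 210 and 199 FPKM and at 214, 172 and 213 FPKM, and its groups overlapped (-0.01 ± 0.098, adjusted p = 0.940). The last 46 of the 207 bases of MT-ATP8 are also the first 46 of MT-ATP6. The gene is printed here from GENCODE v29 with those shared bases in capitals, since reads there belong to both genes.
MT-ATP8: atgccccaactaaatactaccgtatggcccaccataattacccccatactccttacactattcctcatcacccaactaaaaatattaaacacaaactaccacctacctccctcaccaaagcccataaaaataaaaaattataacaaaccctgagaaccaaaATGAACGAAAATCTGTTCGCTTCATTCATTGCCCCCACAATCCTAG
The ratio of MT-ATP8 to MT-ATP6 in FPKM was 0.0985 ± 0.0017 (SD, n = 3) in shCtrl and 0.126 ± 0.0091 in shNAT10, without overlap. How the counting treated reads in the shared bases is not given in the sources used here, and its part in the low level of MT-ATP8 was not tested. The same limit touches MT-ND4L and MT-ND4, with 7 shared bases, and MT-ATP6 and MT-CO3, with 1.

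**Figure D2:**
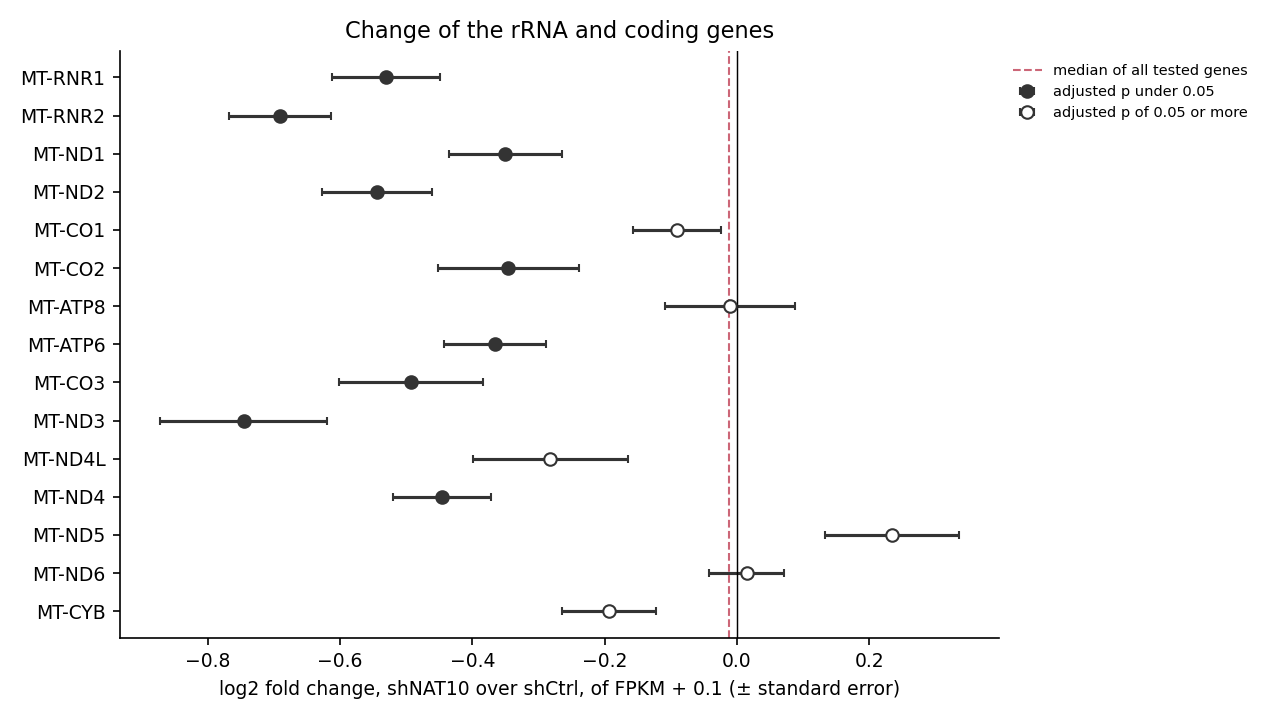
Log2 fold change of FPKM + 0.1, shNAT10 over shCtrl, with its standard error for the rRNA and coding genes in map order. Filled points have an adjusted p under 0.05, and the dashed line is the median of all tested genes at -0.01. Both rRNA genes and 7 coding genes lie to the left as called, and MT-ND5 lies farthest to the right; under quantile normalization the median of the coding genes was 0.03.

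The make-up of the coding RNA differed between the groups, apart from its total. Of the summed FPKM of the 13 genes, MT-CO1 held 22.8%, 20.7% and 22.6% in shCtrl and 25.3%, 25.2% and 24.3% in shNAT10. MT-ND5 held 8.0%, 5.73% and 7.48% in shCtrl and 9.91%, 9.97% and 9.92% in shNAT10. MT-ND3 held 3.36%, 4.25% and 3.52% and then 2.72%, 2.59% and 2.65%. The groups did not overlap in this share for these 3 genes, nor for any other coding gene except MT-CO2 and MT-ND4L. Among the others the share was also larger in shNAT10 for MT-CYB, MT-ND6 and MT-ATP8. These are parts of 1 sum, so a larger share of some genes goes with smaller shares of others. In level, the groups did not overlap for 28.6% of all tested genes with shNAT10 lower and for 27.9% with it higher. The like count for shares of a sum was not computed for other genes. The ratio of MT-ND5 to MT-ND4, genes that follow each other on the plus strand with only tRNAs between them, was 0.569, 0.399 and 0.513 in shCtrl and 0.785, 0.778 and 0.784 in shNAT10. The spread of the ratio was 0.087 (SD, n = 3) in shCtrl and 0.0039 in shNAT10, with shCtrl replicate 2 the lowest, and the groups did not overlap with or without it.

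The order of the levels was led by MT-CO1, MT-CO2 and MT-ND4 in both groups and ended with MT-ND3, MT-ND6 and MT-ATP8. In shCtrl, MT-CO1 and MT-CO2 overlapped in their ranges over the 3 libraries, and so did each neighbouring pair from MT-CO3 down to MT-ND3. In shNAT10 the ranges overlapped only between MT-ND1 and MT-ND4L and between MT-ATP6 and MT-ND2 among the neighbours. MT-ND5 stood in place 5 in shCtrl and in place 4 in shNAT10, where it had passed MT-CO3. These levels are FPKM, a value per length. The places of MT-ATP8, MT-ATP6, MT-ND4L, MT-ND4, MT-CO3 and MT-ND6 hold within the limits of counting shared bases and strand. All levels are of RNA that the mRNA capture retained, for MT-ND6 as for the others. The part of capture in the order was not tested.

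**Figure D3:**
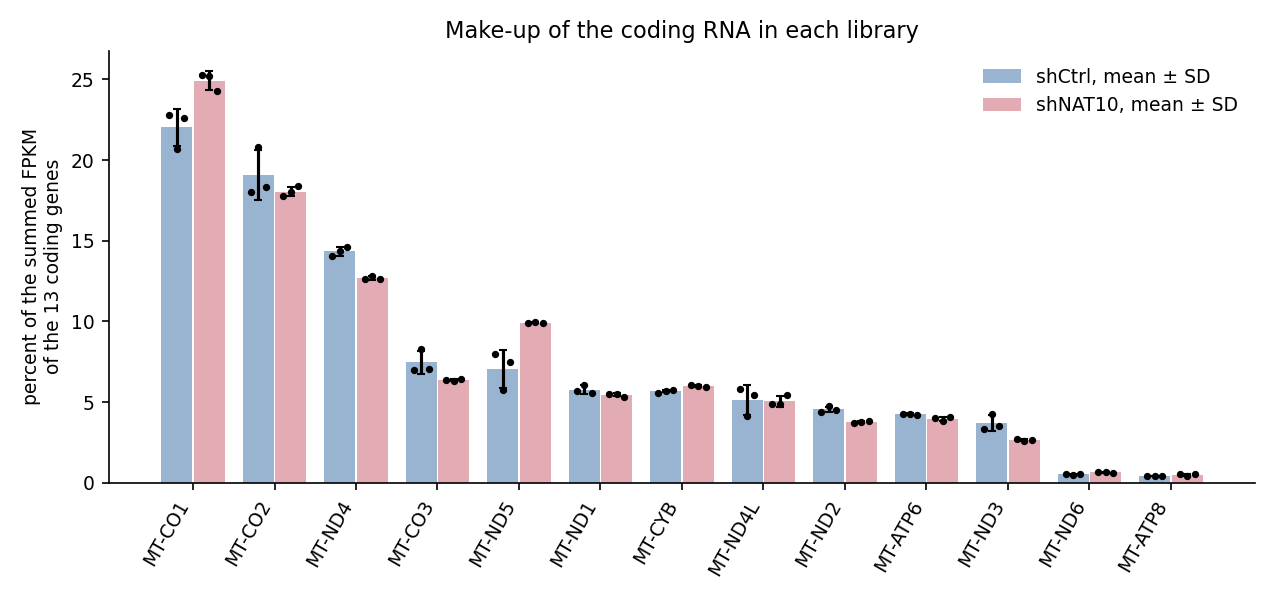
Percent of the summed FPKM of the 13 coding genes held by each gene, as the mean with SD of 3 libraries per group (bars) and each library (points). The share was larger in shNAT10 for MT-CO1, MT-ND5, MT-CYB, MT-ND6 and MT-ATP8. It was smaller for MT-ND4, MT-CO3, MT-ND1, MT-ND2, MT-ATP6 and MT-ND3, and the groups overlapped for MT-CO2 and MT-ND4L.

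Both rRNA genes were lower in shNAT10. MT-RNR1 (ENSG00000211459, chrM:648-1601), the rRNA of the small mitoribosome subunit, was at 1460, 1553 and 1716 FPKM in shCtrl and at 1068, 1056 and 1144 FPKM in shNAT10 (-0.53 ± 0.081, adjusted p = 0.00254). MT-RNR2 (ENSG00000210082, chrM:1671-3229), the rRNA of the large subunit, was at 8672, 9271 and 9283 FPKM and at 5284, 5727 and 5865 FPKM (-0.69 ± 0.076, adjusted p = 0.000688), or 0.620 of the control level. Neither gene overlapped between the groups, and leaving out any 1 library ended neither call. Both calls were lost when no filter on low values was set, with the same log2 fold changes, and that of MT-RNR2 was lost under quantile normalization (-0.16). The ratio of MT-RNR2 to MT-ND1, the next coding gene on the strand, was 3.30 ± 0.27 (SD, n = 3) in shCtrl and 2.60 ± 0.16 in shNAT10, without overlap. The ratio of MT-RNR1 to MT-RNR2 was 0.174 ± 0.0098 and 0.194 ± 0.0090, and there the groups overlapped. These RNA-seq libraries were made from captured mRNA, so the levels of rRNA describe the part of it that the capture retained, and the part that capture played in the difference was not tested.

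The tRNA genes were at the edge of detection. Of the 22, 12 had 0 reads in all 6 libraries (MT-TV, MT-TL1, MT-TM, MT-TN, MT-TC, MT-TD, MT-TK, MT-TG, MT-TR, MT-TH, MT-TS2 and MT-TL2), which allows a share of up to 1.28e-05% to 1.89e-05% of the reads of a library by counting error alone. Among these are both leucine tRNA genes and 1 of the 2 serine tRNA genes. Of the 12, 10 lie on the plus strand and 2 on the minus strand. The 10 with a read were 4 on the plus strand (MT-TF, MT-TI, MT-TW and MT-TT), with 215 reads over all libraries, and 6 on the minus strand (MT-TQ, MT-TA, MT-TY, MT-TS1, MT-TE and MT-TP), with 700 reads. Each of the 12 genes at 0 meets, overlaps or lies 1 base from a gene of its strand. So do MT-TF, MT-TI, MT-TW, MT-TA, MT-TY, MT-TE and MT-TT, which had reads. MT-TP, MT-TQ and MT-TS1 lie 1213, 1186 and 1554 bases from one. How reads that reach into a neighbouring gene were counted is not given, and its part in these counts was not tested. The limit above is thus for reads as counted. The tRNA genes are 59 to 75 bases long and the libraries were made from captured mRNA. These counts therefore do not describe the amount of mature tRNA in the cells.

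MT-TP, the proline tRNA (chrM:15956-16023, minus strand), had the most reads, with 51, 51 and 78 in shCtrl and 44, 52 and 30 in shNAT10. MT-TT, the threonine tRNA (chrM:15888-15953), had 19, 49 and 32 and then 17, 33 and 15. MT-TQ, the glutamine tRNA (chrM:4329-4400, minus strand), had 26, 30 and 25 and then 19, 33 and 21. In all 3 the groups overlapped, with log2 fold changes of FPKM of -0.32 ± 0.20, -0.41 ± 0.34 and 0.01 ± 0.18 SE and adjusted p of 0.237, 0.375 and 0.965. With 1 library left out MT-TP lay between -0.45, without shNAT10 replicate 1, and -0.09, without shNAT10 replicate 3, and MT-TT between -0.68, without shNAT10 replicate 2, and -0.08, without shCtrl replicate 2, and neither was called. MT-TS1, the serine tRNA next to MT-CO1 on the other strand (chrM:7446-7514), had 16, 33 and 21 reads and then 19, 12 and 5. MT-TY, the tyrosine tRNA, had 20, 19 and 24 and then 21, 11 and 5. Neither passed the test (adjusted p = 0.194 and 0.236), and shNAT10 replicate 1 was at the level of the controls in both. Without it both were called lower, at -1.38 and -1.35.

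Of the 8 tRNA genes that passed the filter of 1 FPKM in 3 libraries, 1 was called, MT-TA, the alanine tRNA (chrM:5587-5655, minus strand). It passed the filter through the shCtrl libraries alone, where it is high, so that a difference was bound up with being tested and the call supports nothing further. It rests on few reads, 3, 4 and 2 in shCtrl and 0, 1 and 0 in shNAT10. The ratio of its reads, shNAT10 over shCtrl and scaled to depth, was 0.128 with an exact 95% interval of 0.00293 to 0.925 that covers counting error only. Its fitted log2 fold change of -3.42 depends on the pseudocount, and the call was lost without shNAT10 replicate 1 or replicate 3 (-2.90 in both). MT-TW, the tryptophan tRNA, with 15 reads in each group, and MT-TE, the glutamate tRNA, with 13 and 11, overlapped between the groups (adjusted p = 0.960 and 0.569). MT-TF, the phenylalanine tRNA, with 6 and 5 reads, and MT-TI, the isoleucine tRNA, with 3 and 6, did not pass the filter.

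Genes of the minus strand held 0.216%, 0.206% and 0.202% of the mitochondrial reads in shCtrl and 0.265%, 0.257% and 0.248% in shNAT10. These values lay apart between the groups, while the level of MT-ND6, which gives most of these reads, overlapped between them. MT-ND6 reads numbered 2322, 2754 and 3064 in shCtrl and 2165, 2571 and 2392 in shNAT10. The ratio of MT-ND6 to MT-CYB, a plus-strand coding neighbour, was 0.0934 ± 0.0051 (SD, n = 3) in shCtrl and 0.108 ± 0.0012 in shNAT10. To MT-ND5, the plus-strand neighbour on its other side, the ratio was 0.0763 ± 0.011 and 0.0650 ± 0.0014. The groups overlapped in neither ratio, and the direction of the difference depended on the neighbour chosen. The library kit keeps the strand, but the strand setting of the counting is not given in the sources used here. Reads of MT-ND6 and of RNA opposite to it thus cannot be told apart with certainty. The part that mRNA capture played in the level and the ratios of MT-ND6 was not tested.

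Stretches of the mitochondrial chromosome copied into nuclear DNA can take reads from these genes or give reads to them. The table held 407 such pseudogene copies, 344 of them at 0 in all libraries and 5 with a mean of at least 1 FPKM. MTATP6P1 on chromosome 1, whose transcript was 98.5% identical to MT-ATP6, was at 367, 409 and 367 FPKM in shCtrl and at 290, 241 and 333 FPKM in shNAT10 (-0.41 ± 0.12, adjusted p = 0.0312). MTND2P28, 98.4% identical to MT-ND2, was at 90.8, 84.5 and 87.6 FPKM and at 73.5, 67.1 and 71.8 FPKM (-0.31 ± 0.066, adjusted p = 0.00959), and MTCO1P12, 98.6% identical to MT-CO1, was at 15.7 ± 1.9 (SD, n = 3) and 12.1 ± 0.53 FPKM (-0.37 ± 0.10, adjusted p = 0.0242). These 3 were lower in shNAT10, as were MT-ATP6 and MT-ND2 and not, by the test, MT-CO1. MTND4P12 and MTRNR2L12 were below 4 FPKM in every library and overlapped between the groups (adjusted p = 0.0919 and 0.287). Reads that match both places cannot be told apart in these values, and with all copies added the mitochondrial share was 6.79% in shCtrl and 5.50% in shNAT10.

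The nuclear genes that transcribe, process, modify and translate mitochondrial RNA were counted from a list of 82 symbols, of which 80 matched a gene and 78 were tested. Of these, 22 were lower and 13 higher, which is 28.2% and 16.7% of the list beside 21.2% and 20.8% of all tested genes, and none passed a log2 fold change of 1. Genes of transcription and mtDNA maintenance were lower in 9 of 17 and higher in 3, and genes of processing and stability were lower in 7 of 23 and higher in 2. Those of tRNA and rRNA modification were lower in 5 of 24 and higher in 4, and those of translation were lower in 1 of 14 and higher in 4. The median log2 fold change of the list was -0.12. The lower count was 9 without shCtrl replicate 3, 9 without shNAT10 replicate 1, 7 without replicate 2 and 6 without replicate 3, and the higher count was 7, 6 and 6 without the shNAT10 libraries in that order.

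TFAM, which packages the chromosome and starts its transcription, was at 20.5 ± 1.7 FPKM (SD, n = 3) in shCtrl and 11.4 ± 1.0 FPKM in shNAT10 (-0.84 ± 0.096 SE, adjusted p = 0.000756). POLRMT, the polymerase, was at 10.7 ± 1.4 and 8.28 ± 0.90 FPKM (-0.37 ± 0.12, adjusted p = 0.0451), and TFB2M, its partner in opening the promoter, was at 14.1 ± 0.29 and 12.9 ± 0.92 FPKM and did not pass (adjusted p = 0.196). Of the enzymes that cut the precursors, ELAC2 was lower (33.8 ± 2.3 and 27.4 ± 0.20 FPKM, -0.30 ± 0.070, adjusted p = 0.0137), as was TRMT10C of RNase P (25.7 ± 2.4 and 19.9 ± 0.65 FPKM, -0.36 ± 0.084, adjusted p = 0.0133). LRPPRC, which keeps mitochondrial mRNAs stable, was at 77.5 ± 7.8 and 75.6 ± 2.1 FPKM with overlapping groups (adjusted p = 0.795). Its partner SLIRP was at 34.7 ± 8.5 and 24.2 ± 1.2 FPKM and did not pass (-0.49 ± 0.17, adjusted p = 0.0533). PNPT1, a nuclease of the RNA degradosome, was at 27.0 ± 1.5 and 27.8 ± 1.4 FPKM (adjusted p = 0.656).

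The nuclear subunits of the same complexes were counted from a list of 77 genes, of which 74 were tested, and 14 were lower and 5 higher, which is 18.9% and 6.76% of the list beside 21.2% and 20.8% of all tested genes. Complex I subunits were lower in 8 of 34 and higher in 3, complex III in 2 of 9 and 0, complex IV in 1 of 11 and 0, and the ATP synthase in 3 of 16 and 0. Complex II, which has no subunit from the mitochondrial chromosome, was lower in 0 of 4 and higher in 2. The median log2 fold change of the 74 was -0.18. Past a log2 fold change of 1 were NDUFA12, a complex I accessory subunit, at 66.2 ± 12 and 16.6 ± 0.90 FPKM (SD, n = 3; -1.98 ± 0.13 SE, adjusted p = 0.000112), and NDUFV2, a subunit of the arm that takes up electrons, at 1.99 ± 0.35 and 0.887 ± 0.19 FPKM (-1.09 ± 0.21, adjusted p = 0.00707). NDUFV2 lay close to the filter of 1 FPKM, which all 3 shCtrl libraries and 1 shNAT10 library reached, so its entry into the test rested on the group where it is high.

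In the acRIP lists, 10 of the 16892 shCtrl peaks and 9 of the 15813 shNAT10 peaks lay on mitochondrial genes. Both rRNA genes and 7 of the 13 coding genes had a peak in each list, beside 63.9% of the 449 other genes with a mean of at least 100 FPKM in the shCtrl list and 62.8% in the shNAT10 list. A peak stood in both lists for 8 genes (MT-RNR1, MT-RNR2, MT-CO1, MT-CO2, MT-CO3, MT-ATP6, MT-ND4L and MT-CYB), in shCtrl alone for MT-ND3 and in shNAT10 alone for MT-ND4. No peak was listed on MT-ND1, MT-ND2, MT-ND5, MT-ND6, MT-ATP8 or any tRNA gene, and none on the minus strand. The RNA of MT-ND6 has 7.05% C and that of the plus-strand coding genes has 29.5% to 36.0%. MT-ND1, MT-ND2 and MT-ND5, without a peak, have 36.0%, 33.5% and 34.3% C. Any part of the C content in the presence of peaks was not tested. Each group has 1 list, so peaks have no replicate check and a peak missing from a list is not shown to be absent.

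The rRNA peaks were the strongest of the chromosome. On MT-RNR2 the shCtrl peak covered chrM:1701-3229 at a fold enrichment (IP over input) of 65.1, and the shNAT10 peak covered the whole gene, chrM:1671-3229, with 278. On MT-RNR1 the peaks were chrM:678-1452 with 22.4 and chrM:648-1482 with 63.6. The fold enrichment was thus higher in the shNAT10 list for both rRNAs, against list medians of 49.3 and 45.2. The MT-RNR2 peak stood at percentile 54.4 of the shCtrl list and 77.3 of the shNAT10 list. Before sequencing, cDNA of rRNA was removed with probes for mammalian rRNA, and the part that this removal played in these ratios was not tested.

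Peaks on coding genes were low in fold enrichment and varied in width, from 118 to 979 bases in shCtrl and from 118 to 1542 in shNAT10, beside a median of 211 in both lists. Their fold enrichment lay between 1.21 and 5.44 in shCtrl (median 2.16, 8 peaks) and between 1.60 and 3.53 in shNAT10 (median 2.02, 7 peaks), while 12.7% and 13.7% of the lists lay under 6. Of the 19 genes outside the chromosome with a mean of at least 1000 FPKM, 11 had a peak in shCtrl and 8 in shNAT10, with median fold enrichments of 2.83 and 2.81. The peaks covered 3272 bases of coding genes in shCtrl and 3432 in shNAT10, 28.7% and 30.1% of the coding length. MT-CO1 had 2 peaks in shCtrl, at chrM:5904-6230 with 1.86 and at chrM:6467-7445 with 5.44, and 1 peak over the whole gene in shNAT10 with 3.53. MT-CO2 had 2.45 at chrM:7645-8150 and 1.94 at chrM:7616-8091, and MT-CO3 had 3.84 at chrM:9207-9874 and 2.53 at chrM:9236-9845. MT-CO2 and MT-CO3 were thus lower in the shNAT10 list, MT-CO1 lay between its 2 shCtrl values, and those of MT-ATP6, MT-ND4L and MT-CYB, of 1.67, 1.25 and 1.21 in shCtrl, were higher, at 2.99, 1.88 and 2.02. The MT-ND3 peak of shCtrl covered chrM:10088-10404 with 2.69, and the MT-ND4 peak of shNAT10 covered chrM:10999-11239 with 1.60. With an overlap of 1 base, 7 of the 10 shCtrl peaks (70.0%) met a peak of the other list, and 6 of the 9 shNAT10 peaks (66.7%) did. The same share over all peaks of the lists was not computed, so these shares cannot be called high or low. Some of these peaks cover most of a gene, where an overlap is hard to avoid.

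**Figure D4:**
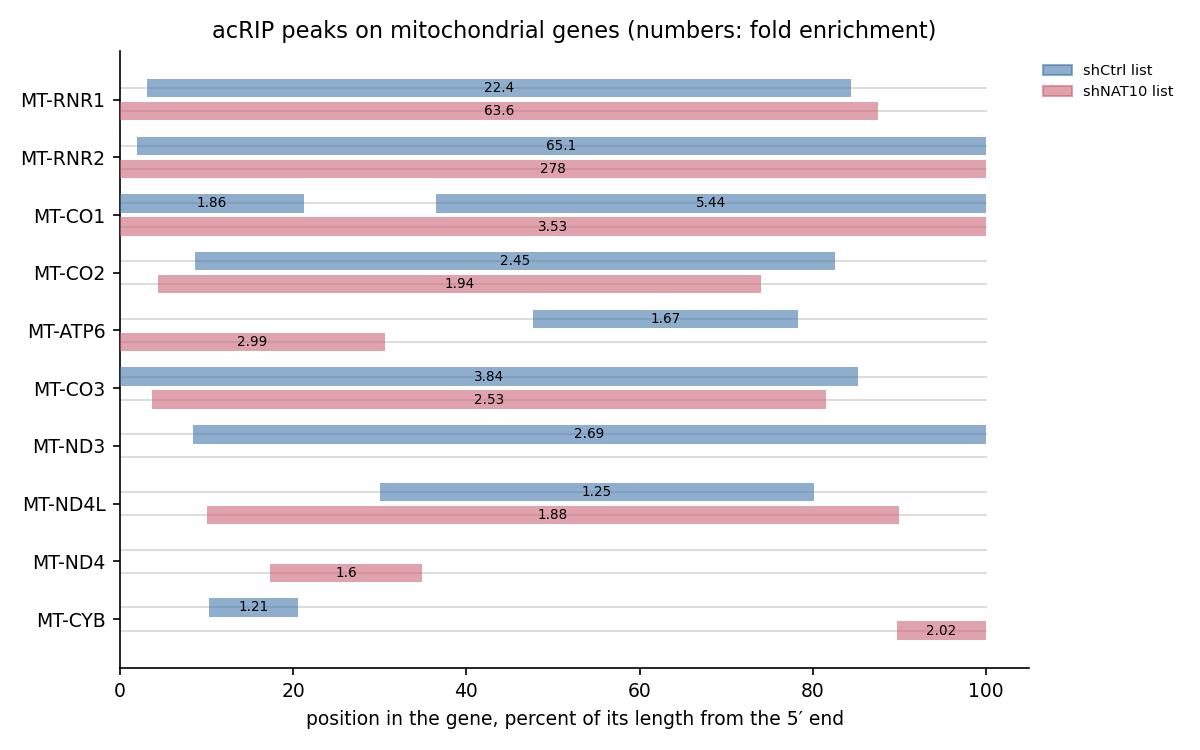
Extent of each acRIP peak along its gene, in percent of the gene length from the 5′ end, for the 10 genes with a peak in either list (blue shCtrl, red shNAT10), with the fold enrichment written in the bar. On MT-ATP6 and MT-CYB the bars of the lists lie in different places, and on both rRNA genes they cover most of the gene.

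The sequences under 3 pairs of peaks show where the lists met and where they did not, printed from GENCODE v29 on GRCh38 in the sense of the RNA. On MT-ND4L the shNAT10 peak (chrM:10500-10736, 237 bases) contains the shCtrl peak (chrM:10559-10707, 149 bases), which is in capitals.
MT-ND4L shNAT10 peak: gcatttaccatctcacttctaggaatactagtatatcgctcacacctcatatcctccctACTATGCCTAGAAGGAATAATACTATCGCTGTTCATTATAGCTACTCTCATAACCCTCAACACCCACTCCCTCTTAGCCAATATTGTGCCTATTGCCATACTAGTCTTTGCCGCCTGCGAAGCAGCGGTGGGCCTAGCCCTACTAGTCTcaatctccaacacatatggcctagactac
On MT-ATP6 and MT-CYB the peaks of the lists share no base, and the capitals mark each CCG, the triplet in which ac4C is known to sit in rRNA and tRNA. On MT-ATP6 the shCtrl peak lies at chrM:8852-9059 and the shNAT10 peak at chrM:8527-8734, each of 208 bases, and the latter begins with the 46 bases that MT-ATP8 shares.
MT-ATP6 shCtrl peak: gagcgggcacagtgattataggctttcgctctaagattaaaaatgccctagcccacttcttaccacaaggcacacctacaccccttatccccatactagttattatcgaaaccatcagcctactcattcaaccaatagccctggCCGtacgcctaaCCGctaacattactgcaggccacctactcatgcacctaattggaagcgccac
MT-ATP6 shNAT10 peak: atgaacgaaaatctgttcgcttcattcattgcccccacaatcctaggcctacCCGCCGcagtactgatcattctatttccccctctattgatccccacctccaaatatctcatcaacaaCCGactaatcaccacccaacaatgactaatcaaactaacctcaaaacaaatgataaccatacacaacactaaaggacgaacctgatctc
On MT-CYB the shCtrl peak lies at chrM:14864-14981 and the shNAT10 peak at chrM:15770-15887, the last 118 bases of the gene.
MT-CYB shCtrl peak: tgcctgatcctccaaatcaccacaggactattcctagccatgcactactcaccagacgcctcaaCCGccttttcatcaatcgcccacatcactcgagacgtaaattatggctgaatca
MT-CYB shNAT10 peak: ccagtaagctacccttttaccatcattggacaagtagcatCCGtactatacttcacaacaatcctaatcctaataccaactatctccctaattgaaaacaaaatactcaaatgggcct
The letters CCG were searched on the RNA strand only and occurred 2 times in the MT-ATP6 peak of shCtrl, 3 times in that of shNAT10, and 1 time in each of the MT-CYB peaks. Of all windows of 208 bases in the 13 coding genes, 84.7% held a CCG, and of those of 118 bases 61.3% did, so holding 1 is common for such lengths. C made up 33.7% and 34.1% of the bases of the MT-ATP6 peaks, and 35.6% and 28.8% of the MT-CYB peaks.

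Nuclear copies also carried peaks. MTND2P28 had a peak at chr1:630027-630504 with a fold enrichment of 91.8 in shCtrl and at chr1:630027-630474 with 74.0 in shNAT10, while MT-ND2, 98.4% identical to it, had none in either list. MTCO1P12 had 1 peak in shCtrl with 3.98 and 2 in shNAT10 with 5.89 and 2.78. How the authors placed reads that match both the copy and the mitochondrial gene is not given in the sources used here.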

How the data were processed

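RNA-seq (3 libraries per group) and acRIP-seq (1 list of peaks per group, from 3 IP and 3 input libraries) of PANC-1 cells were analysed. The authors deposited FPKM values per Ensembl gene, and the submitters' processing notes name HISAT2 2, HTSeq 0.11.0, DESeq2 1.22.2 and GRCh38. The deposited peak lists give a fold enrichment of IP over input as a ratio, and a score that is the log10 of the p-value, also made by the authors. The peak caller, the annotation and the counting mode are not given in the sources used here. The deposited false discovery rates were not used.

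Log2(FPKM + 0.1) entered limma 3.58.1 (R 4.3.3), trend included, and p-values were adjusted by Benjamini-Hochberg over all 12982 genes that reached 1 FPKM in 3 or more libraries; fold changes of low genes depend on the added 0.1, which draws each ratio of values toward 1. Values given as ± after a log2 fold change are standard errors. Whole reads were recovered from the FPKM steps with GENCODE v29 transcript lengths (98.2% of values above 0 were whole within 0.05 reads) and entered the shares, the tRNA counts and 1 alternative. Identity of nuclear copies was computed with edlib 1.3.9.post1, and intervals are exact binomial. Python 3.11.15, pandas 2.3.3, NumPy 2.4.6, SciPy 1.17.1 and matplotlib 3.10.9 were used. The fit was tested on simulated data. Positions in the lists were read as 0-based starts and are printed 1-based.

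All 37 genes are named; NAT10, 8 genes of the mitochondrial gene expression list and any member past an adjusted p of 0.05 and a log2 fold change of 1, nuclear subunits past the same limits, and copies with a mean of at least 1 FPKM were named by rule. The members and lists were chosen with earlier results of these data known.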

Additional observations from a re-analysis of the deposited data

How the results depend on the processing

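The 7 coding genes called lower numbered 1 with no filter on low values (29695 genes tested), 2 under quantile normalization, 6 with median centring and 7 or 8 in the other alternatives on all libraries apart from the replicate block. With libraries left out in turn they numbered 3 to 9, the lowest without shNAT10 replicate 2. The count called higher was 1 under quantile normalization and 0 to 1 with libraries left out. Of the rRNA and tRNA genes, 3 were called lower (MT-TA, which passed the filter through shCtrl alone, among them), 1 with no filter and 2 to 4 with libraries left out, and 0 were higher in any of the 16 alternatives. The median log2 fold change of the 13 coding genes, -0.35, was 0.0304 under quantile normalization, where 8 of the 10 genes of highest mean FPKM are mitochondrial, -0.24 as TPM and -0.39 to -0.27 with libraries left out. As TPM the median of all tested genes moved by 0.11, from -0.01 to 0.10, and the lower share of all calls went from 50.5% to 38.2%, while the coding median stood -0.33 from it in both. The cause of the other shifts was not tested.

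Under quantile normalization the sign turned for MT-CO1 (0.10), MT-CO2 (0.0507), MT-ATP8 (0.0753), MT-ND4L (0.0304) and MT-CYB (0.10), as TPM for MT-CO1 (0.0183) and MT-ATP8 (0.10), in the fit on recovered reads for MT-ATP8 (0.00084), and with scaling to nuclear reads for MT-TQ (-0.0079) and MT-ND6 (-0.0049). With libraries left out, log2 fold changes crossed 0 for MT-TQ (-0.16 to 0.10), MT-TW (-0.29 to 0.51), MT-TE (-1.21 to 0.15), MT-ATP8 (-0.0636 to 0.0926) and MT-ND6 (-0.0022 to 0.0293). Of the mitochondrial gene expression list, 22 were lower, 10 with no filter, 11 as TPM and 6 to 25 with libraries left out, and 13 were higher, 6 to 17 with libraries left out.

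The mitochondrial share was 16.03% and 13.7% as a share of summed FPKM, and 6.65% to 6.87% and 5.40% to 5.51% of reads with libraries left out. In the upper 50% of each list by fold enrichment, 1 mitochondrial peak was left in shCtrl and 2 in shNAT10. With an overlap of 50% of both peaks, 6 of 7 pairs of peaks were left.

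Samples with the same number correlated at -0.043, 0.064 and 0.107 in their deviations from the group means. These values are small and cannot show whether the libraries were made in pairs. shCtrl replicates 2 and 3 correlated best with their own number, and shCtrl replicate 1 did not. With the replicate block 6 coding genes were lower (MT-CO2 was lost, as with median centring), 0 were higher and 3 rRNA and tRNA genes were lower, and the expression list had 15 lower and 11 higher.

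Each group has 3 libraries and 1 peak list. Counts of tRNA reads are too few for small differences to be detectable.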
